A study of Mus musculus with 9 samples.

Results

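The genes described here are the clustered histone genes, chosen as all genes of the count table whose symbol starts with Hist1h, Hist2h, Hist3h or Hist4h, with at least 1 read in total over all embryos and leaving out 1 symbol that ends in -ps. Hist1h2aj, which GENCODE M21 annotates as a pseudogene but whose symbol has no such ending, was kept, with 3 reads in Ctrl replicate 1, 2 in cKO replicate 1 and 1 in dcKO replicate 3. Of the 69 symbols that fit the name, 62 genes had a read and 7 had none, out of 57010 genes in the table, of which 26872 had a read. Poly(A)-selected RNA-seq libraries were made from the cerebral cortex of single mouse embryos at E12.5, with 3 embryos in each of 3 genotypes. The control group (Ctrl) is labelled wild type, the Cnot3 cKO group lost floxed Cnot3, and the Cnot3;Trp53 dcKO group lost floxed Cnot3 and floxed Trp53, through Emx1-Cre, which acts in the radial glia of the dorsal telencephalon and their progeny and not in blood, vessels or meninges. Whether control embryos carried Cre or floxed alleles is not given in the labels. The comparisons ask how the cortical transcriptome differed after loss of a subunit of the CCR4-NOT deadenylase, which shortens poly(A) tails, and how it differed when p53 was lost too. The smallest library held 21193798 counts (Ctrl replicate 2) and the largest 45073349 (dcKO replicate 2). Ctrl replicate 1, dcKO replicate 3 and Ctrl replicate 2 had the highest levels of GC-rich genes, and dcKO replicate 2 kept part of its Cnot3 and Trp53 RNA. Alternative fits followed most of the named genes, but not the marker genes, H2afv and Mcm2 in dcKO, or Chaf1a, H2afy and Gins1 in cKO. Where leaving out dcKO replicate 2 or 3 made a call among those followed, the result without that embryo is also given.

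Histones H2A, H2B, H3 and H4 form the nucleosome core, and H1 binds the linker DNA between nucleosomes. The mRNAs of the clustered genes are made mainly in S phase and typically end in a conserved stem-loop in place of a poly(A) tail. The stem-loop binding protein SLBP and the U7 snRNP direct the cut after this stem-loop, and some clustered genes also make longer, polyadenylated transcripts, which a poly(A) library can capture.

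The deleted genes were measured first. Cnot3 was at 117, 107 and 98.0 CPM (counts scaled to library size with TMM factors) in the Ctrl embryos, 14.9, 17.2 and 14.5 in cKO and 7.29, 48.1 and 19.0 in dcKO. Trp53 was at 236, 253 and 214 CPM in Ctrl, 166, 164 and 167 in cKO and 15.0, 110.1 and 20.5 in dcKO. Both genes were lower in all 3 dcKO embryos than in all 3 Ctrl embryos, and dcKO replicate 2 kept the most of both. That embryo also carried the ventral telencephalon markers, whose 5 genes summed to 8.38 CPM there and to at most 0.488 CPM in any other embryo, with Dlx2, the most abundant over the 9 embryos, at 2.24 CPM. Adjusted p-values from edgeR's quasi-likelihood test were 0.0509 for Cnot3 in cKO against Ctrl (log2 fold change -2.78, SE 0.53), 0.0529 for Cnot3 in dcKO (-2.11, SE 0.52) and 0.0605 for Trp53 in dcKO (-2.27, SE 0.62). Without dcKO replicate 2 all were called by edgeR, with log2 fold changes in dcKO of -3.03 for Cnot3 (SE 0.37, adjusted p = 0.00315) and -3.72 for Trp53 (SE 0.19, adjusted p = 0.000159). DESeq2 called Cnot3 in both mutants, with adjusted p-values of 0.0000122 and 0.00119, and gave no p-value for Trp53. With all 9 embryos and library totals only, edgeR called Cnot3 in both mutants (adjusted p = 0.0450 and 0.0490). With no filter it called Cnot3 in both (adjusted p = 0.00219 and 0.0132) and Trp53 in dcKO (adjusted p = 0.0138). With an offset for GC content, edgeR called Cnot3 in cKO (adjusted p = 0.0297) but not in dcKO (adjusted p = 0.0560), nor Trp53 there (adjusted p = 0.121).

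Reads on the clustered histone genes were few. They made up between 0.00691% and 0.0142% of the reads of an embryo. The 62 genes summed to 153, 98.5 and 71.7 CPM in the Ctrl embryos, 72.9, 86.1 and 69.0 in cKO and 101, 82.2 and 131 in dcKO. Ctrl replicate 1 was highest and the groups overlapped, so no order of the genotypes held in every embryo. Only 6 of the 62 genes had more than 10 reads in every embryo, the minimum for testing, and these 6 held 82.5% of the reads on clustered histone genes. The other 56 had a mean of at most 1.28 CPM and a median of 46 reads in total over the 9 embryos, and 13 of the 62 had under 10 reads in total. The libraries were poly(A)-selected, so these levels are not those of total histone mRNA, and the share of it with a poly(A) tail was not measured. Because bulk tissue was measured, the number of cells in S phase and the histone RNA in each cell cannot be told apart either.

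The 6 tested genes were Hist1h1c (current name H1f2), Hist3h2a (H2aw), Hist2h2be (H2bc21), Hist3h2ba (H2bu2), Hist1h2bc (H2bc4) and Hist1h4i (H4c9), so that every histone but H3 was represented. Per kilobase of annotated exon, the mean level over the 9 embryos was highest for Hist3h2ba at 29.5 CPM per kb, followed by Hist1h4i at 11.8, Hist2h2be at 10.9, Hist1h2bc at 5.33, Hist1h1c at 5.18 and Hist3h2a at 4.19. These lengths come from gene models and the captured transcripts may be shorter, so the order is a description. It also differed between embryos: in dcKO replicates 1 and 2 both Hist1h4i and Hist2h2be lay above Hist3h2ba on this scale, and in Ctrl replicate 3 Hist1h4i lay below Hist2h2be, Hist3h2a and Hist1h1c.

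None of the 6 was called in any comparison, where a call needs an adjusted p-value under 0.05 and a fold change above 2. In cKO against Ctrl the share of all tested genes called was 0.0146% (2 of 13680), in dcKO against Ctrl 0% (0 of 13680) and in dcKO against cKO 0.0146% (2 of 13680). At an unadjusted p under 0.05, edgeR placed 0 of the 6 genes in cKO, where 15.3% of all tested genes were higher and 11.7% lower, 0 in dcKO, where 18.0% were higher and 11.2% lower, and 0 in dcKO against cKO, where 2.05% were higher and 2.38% lower. DESeq2 on the same genes also called 0 of the 6 in each comparison, while it called 8.82% of all tested genes (676 higher and 530.0 lower) in cKO, 8.46% (638 and 519) in dcKO and 0.380% (4 and 48) in dcKO against cKO. At an unadjusted p under 0.05 DESeq2 had 0 of the 6, beside 30.2%, 32.1% and 5.61% of all tested genes. The number of genes called thus depended on the fit, and edgeR itself called 945 genes higher and 813 lower in cKO when only the 6 Ctrl and cKO embryos were fitted, and 417 and 74 with library totals only. The comparisons with Ctrl share the Ctrl embryos. With 3 embryos a group, an exact two-sided permutation test of a single gene cannot give a p below 0.10. A p-value that misses the threshold does not show that levels were equal.

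Hist1h1c encodes a linker histone of the somatic H1 group. It was at 7.69, 6.48 and 4.67 CPM in Ctrl, 7.96, 13.7 and 8.37 in cKO and 6.11, 3.36 and 14.4 in dcKO. All 3 cKO embryos lay above all 3 Ctrl embryos, by a narrow gap, while the dcKO embryos spanned the Ctrl range on both sides. The edgeR log2 fold change was 0.67 (SE 0.50, adjusted p = 0.409) in cKO and 0.34 (SE 0.49, adjusted p = 0.668) in dcKO, and the exact permutation p for cKO was the smallest possible, 0.10. In dcKO the direction rested on replicate 3: without it the log2 fold change was -0.40. With the number shared by some count columns as a block, edgeR called Hist1h1c higher in dcKO, at 1.62. That fit was chosen after seeing the data, and its dcKO values rest on a single pair of embryos.

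Hist3h2a, an H2A gene on chromosome 11, lies in a locus of H2A and H2B genes apart from the large cluster on chromosome 13. It was at 8.50, 8.65 and 8.20 CPM in Ctrl, 9.19, 7.33 and 7.06 in cKO and 13.5, 11.2 and 7.34 in dcKO. The Ctrl embryos were close together and both mutant groups overlapped them. The log2 fold change from edgeR was -0.10 (SE 0.29, adjusted p = 0.846) in cKO and 0.34 (SE 0.29, adjusted p = 0.446) in dcKO. Its annotated exons overlap Trim17 on the same strand, so reads in the shared part cannot be assigned with certainty.

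The H2B genes gave 3 of the 6. Hist2h2be, on chromosome 3, had the most reads of all members, with 35.3, 23.7 and 27.9 CPM in Ctrl, 25.8, 21.8 and 28.1 in cKO and 39.4, 30.7 and 24.7 in dcKO. The 3 groups overlapped throughout, with log2 fold changes from edgeR of -0.20 (SE 0.24, adjusted p = 0.635) in cKO and 0.13 (SE 0.24, adjusted p = 0.745) in dcKO. Hist3h2ba, the chromosome 11 neighbour of Hist3h2a, was at 30.7, 22.4 and 16.2 CPM in Ctrl, 12.6, 15.9 and 11.8 in cKO and 7.43, 6.11 and 39.9 in dcKO. All 3 cKO embryos lay below all 3 Ctrl embryos, whereas dcKO held both the lowest values of the 9 and the highest.

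For Hist3h2ba the log2 fold change was -0.78 (SE 0.62, adjusted p = 0.448 from edgeR) in cKO and -0.38 (SE 0.62, adjusted p = 0.705) in dcKO. The dcKO value depended on single embryos, and without dcKO replicate 2 the log2 fold change was 0.0322. Without dcKO replicate 3 Hist3h2ba was called lower in dcKO than in Ctrl, with a log2 fold change of -1.77 (SE 0.30) and an adjusted p of 0.00115 from edgeR, in a fit that called 15.3% of all tested genes lower. Over all alternatives its adjusted p in dcKO against Ctrl ran from 0.00115 to 0.996, and the calls among them went both ways. With the number shared by some count columns as a block, a fit chosen after seeing the data in which dcKO against Ctrl rests on 1 pair of embryos, edgeR called it higher (1.30, SE 0.29, adjusted p = 0.00210). In cKO it was 0.0418 without dcKO replicate 3, a fit in which 29.7% of all tested genes had an adjusted p under 0.05, and 0.0173 in a fit of the 6 Ctrl and cKO embryos, in which 48.2% did. The log2 fold change was -0.78 in each, less than the 2-fold needed for a call. In the block fit the cKO value was -0.94 (adjusted p = 0.000732 from edgeR), also less than 2-fold. Hist1h2bc, an H2B gene of the chromosome 13 cluster, was at 6.02, 5.64 and 2.37 CPM in Ctrl, 5.31, 6.48 and 3.15 in cKO and 11.9, 3.08 and 11.5 in dcKO. Its replicates differed more than its groups, with log2 fold changes of 0.10 (SE 0.55, adjusted p = 0.926 from edgeR) in cKO and 0.92 (SE 0.55, adjusted p = 0.285) in dcKO.

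Hist1h4i encodes histone H4. It was at 12.8, 9.10 and 1.62 CPM in Ctrl, 6.94, 6.85 and 2.93 in cKO and 12.7, 16.3 and 7.83 in dcKO. Ctrl spanned nearly the whole range, and every dcKO embryo lay above every cKO embryo. The edgeR log2 fold change was -0.49 (SE 0.63, adjusted p = 0.655) in cKO against Ctrl, 0.65 (SE 0.63, adjusted p = 0.507) in dcKO against Ctrl and 1.14 (SE 0.64, adjusted p = 0.889) in dcKO against cKO. The values against Ctrl depended on single Ctrl embryos. Without Ctrl replicate 3 they were -0.97 and 0.17, and without Ctrl replicate 1 they were 0.0662 and 1.21. With the number shared by some count columns as a block, edgeR called Hist1h4i in every comparison, at -1.24, 2.27 and 3.52. That fit was chosen after seeing the data, and its dcKO values rest on a single pair of embryos.

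Between the mutant groups, the other 5 tested genes had edgeR log2 fold changes (dcKO against cKO) of -0.34 (SE 0.49, adjusted p = 0.950) for Hist1h1c, 0.44 (SE 0.29, adjusted p = 0.889) for Hist3h2a, 0.32 (SE 0.24, adjusted p = 0.889) for Hist2h2be, 0.40 (SE 0.62, adjusted p = 0.955) for Hist3h2ba and 0.83 (SE 0.55, adjusted p = 0.889) for Hist1h2bc. For all 5 the dcKO and cKO embryos overlapped. Without dcKO replicate 3 the value for Hist3h2ba turned to -0.99 (adjusted p = 0.0342 from edgeR), short of a 2-fold change, in a fit in which 26.6% of all tested genes had an adjusted p under 0.05.

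**Figure D1:**
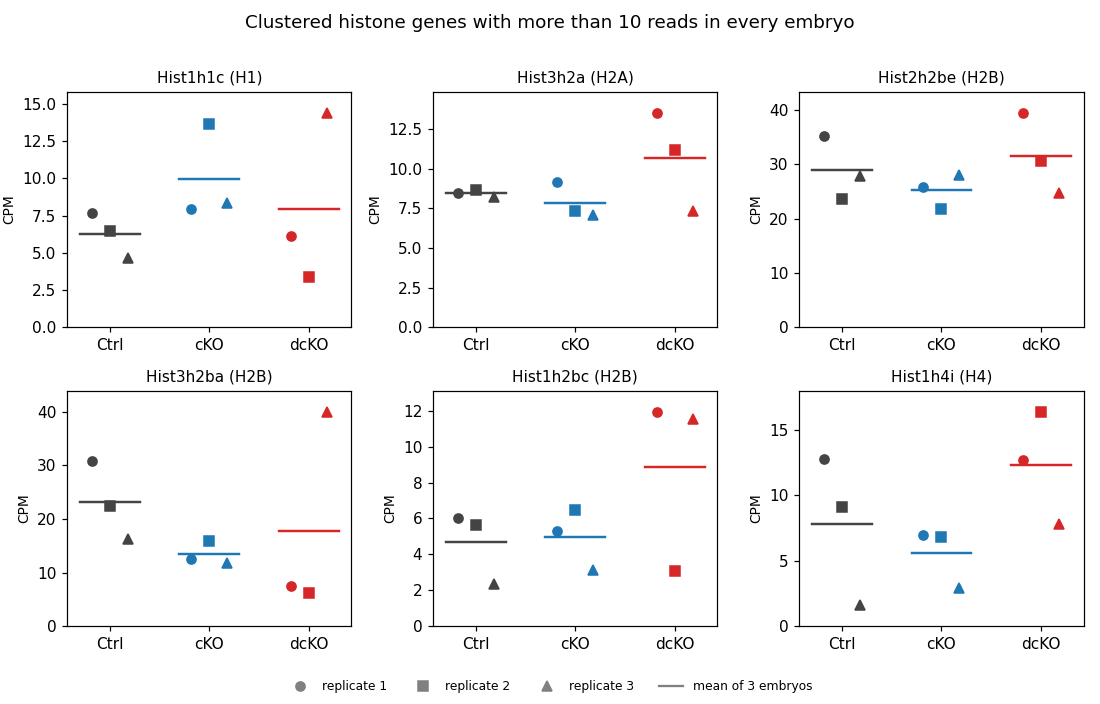
CPM (vertical axes, each starting at 0) of the 6 tested clustered histone genes, for the 3 Ctrl, 3 cKO and 3 dcKO embryos. Marker shapes give the replicate and lines the group mean; Hist3h2ba in dcKO runs from 6.11 to 39.9 CPM, the widest spread of the panels in CPM.

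Groups that did not overlap were counted against all genes. Among the 6 tested genes, 1 lay higher in every cKO than in every Ctrl embryo and 1 lower, beside 29.0% and 28.2% of all tested genes. In dcKO against Ctrl the counts were 0 higher and 0 lower, beside 15.6% and 11.3%, and in dcKO against cKO 1 higher and 0 lower, beside 2.62% and 3.62%. Over all 62 genes, 10 (16.1%) were lower in every cKO than in every Ctrl embryo and 1 (1.61%) higher. Of all genes with a read, 16.4% were lower and 18.9% higher, so the share of lower members was near the background and that of higher members below it. Some of the 10 rest on single reads, such as Hist1h2ab, with 1 read in each Ctrl embryo and 0 in each cKO embryo. In dcKO against Ctrl 7 (11.3%) were lower and 1 higher, beside 7.66% and 9.53%, and in dcKO against cKO 0 were lower and 1 higher, beside 3.52% and 2.09%.

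The 56 genes below the read minimum were summed in each embryo. Together they had 1279, 456 and 298 reads in Ctrl, 140, 382 and 203 in cKO and 376, 450 and 609 in dcKO, which came to 52.0, 22.6 and 10.7 CPM, 5.09, 14.1 and 7.62 CPM, and 10.4, 11.5 and 25.1 CPM. Ctrl replicate 1 stood far above the rest, cKO replicate 2 lay above Ctrl replicate 3, and the groups overlapped. Of the 56 genes, 36 had their highest CPM in Ctrl replicate 1 and 9 in dcKO replicate 3, whereas 8.92% and 12.8% of the other genes with a mean under 3 CPM did.

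The low members were also summed by histone, without a test of differences between the classes and without adjustment for GC content. Levels of GC-rich genes outside the members also differed between embryos, as given below. The 10 H3 genes, all below the minimum, summed to 7.97, 4.95 and 2.05 CPM in Ctrl, 0.545, 0.703 and 0.864 in cKO and 0.774, 1.78 and 2.31 in dcKO. For H3 every cKO embryo was below every Ctrl embryo, while dcKO replicate 3 reached into the Ctrl range; the reads behind these sums were 196, 100 and 57 in Ctrl, 15, 19 and 23 in cKO and 28, 70 and 56 in dcKO. The 14 low H2B genes summed to 24.1, 11.3 and 4.85 CPM in Ctrl, 2.58, 6.96 and 3.72 in cKO and 3.90, 5.35 and 11.5 in dcKO, with overlap between all groups. The 5 low H1 genes summed to 9.19, 3.56 and 2.16 CPM in Ctrl, 1.09, 3.04 and 1.20 in cKO and 1.30, 2.70 and 4.95 in dcKO. Overlap was seen for the 12 low H4 genes too, at 8.78, 2.13 and 0.899 CPM in Ctrl, 0.254, 1.15 and 0.676 in cKO and 2.49, 0 and 5.36 in dcKO. The 15 low H2A genes were at 1.99, 0.593 and 0.755 CPM in Ctrl, 0.618, 2.30 and 1.16 in cKO and 1.93, 1.63 and 0.948 in dcKO, with no group apart.

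**Figure D2:**
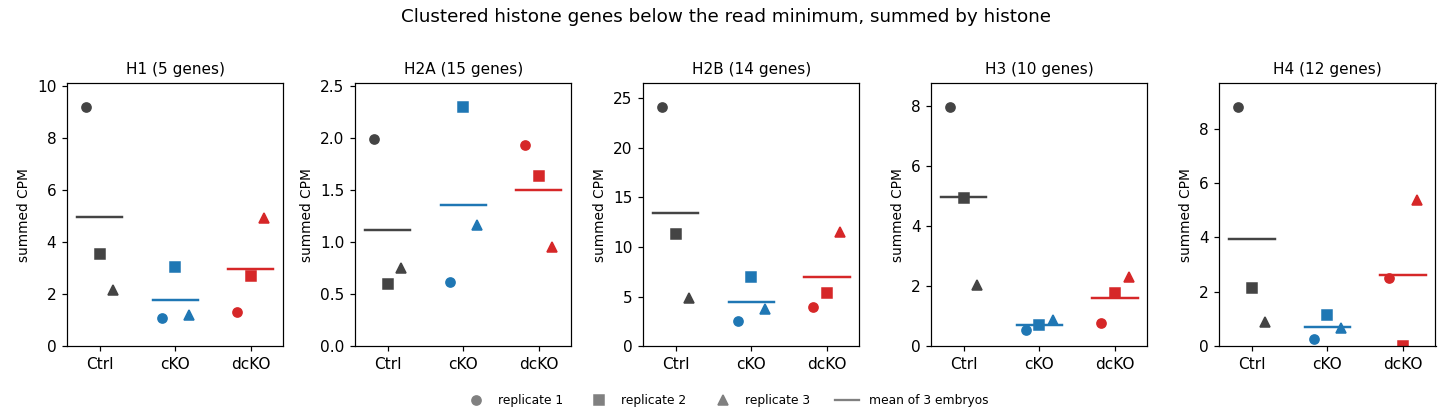
Summed CPM (vertical axes, each starting at 0) of the clustered histone genes below the read minimum, by histone, in each Ctrl, cKO and dcKO embryo, with marker shapes for replicates and lines for group means. Only in the H3 panel do the cKO embryos, at 0.545 to 0.864 CPM, all lie below the Ctrl embryos, at 2.05 to 7.97 CPM. The sums are not adjusted for GC content.

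Single genes among these had few reads, and those named next were chosen after their values were seen. Hist1h3c had 39, 16 and 10 reads in Ctrl, 2, 0 and 0 in cKO and 0, 6 and 5 in dcKO. Hist1h2bj had 37, 12 and 8 reads in Ctrl, 0, 0 and 1 in cKO and 0, 4 and 4 in dcKO. In both genes the CPM of every mutant embryo lay below that of every Ctrl embryo. Hist1h2ac had 0, 9 and 9 reads in Ctrl, 11, 34 and 28 in cKO and 61, 50 and 14 in dcKO. Its CPM was higher in every dcKO than in every Ctrl embryo, the cKO embryos overlapped Ctrl, and its exons overlap an annotated rRNA gene on the same strand.

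Without a filter, all 62 genes entered a fit of 26872 genes, in which very low counts carry little information. In cKO against Ctrl 56 of the 62 had a log2 fold change below 0 and 5 above, with a median of -2.15 beside 0 for all genes, and 10 were lower and 0 higher at an unadjusted p under 0.05, beside 8.32% and 8.15% of all genes. In dcKO against Ctrl 49 were below 0, the median was -1.05, and 2 were lower and 0 higher, beside 8.88% and 8.66%. In dcKO against cKO 43 were above 0, the median was 0.88, and 1 was higher and 0 lower, beside 2.02% and 2.30%. None of the 62 was called in this edgeR fit, which called 3.03% of all genes in cKO, 2.58% in dcKO and 0.0298% in dcKO against cKO. Many of these fold changes come from groups with 0 reads and depend on the prior count. Members needed only 1 read in total. Hist1h2ag, with 8 reads, and Hist1h2ap, with 4, had reads in Ctrl replicate 1 alone, so their sign against Ctrl was fixed by how they entered. Near-identical copies were counted separately. The share of all genes below or above 0 was not counted, so the counts by sign are a description only.

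Some members are near-identical copies and are not independent. Hist1h2bq and Hist1h2br had 96, 34 and 16 reads each in Ctrl and 306 reads each in total, and Hist1h4m and Hist1h4n had 50 and 52 reads in total. How reads that match both copies were counted is not given in the sources used here, so their values are uncertain.

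Levels of GC-rich genes differed between embryos too. The median GC content of the 56 low members was 58.9%, against 49.4% for the 6 tested members and 49.5% for the other tested protein-coding genes. Among the latter, 469 genes had a GC content of 60% or more, and the median of their CPM relative to each gene's mean over the 9 embryos was 1.74, 1.47 and 1.00 in Ctrl, 0.709, 0.897 and 0.692 in cKO and 0.372, 0.390 and 1.50 in dcKO. Ctrl replicate 1, dcKO replicate 3 and Ctrl replicate 2 were, in this order, the highest by this measure and in the sum of the low members, and dcKO replicates 1 and 2 were the lowest for the GC-rich genes. Among 105 GC-rich genes that were not tested and had a mean under 3 CPM, the same median was 1.28, 1.07 and 0.578 in Ctrl, 0.855, 1.07 and 0.736 in cKO and 0.452, 0.105 and 1.93 in dcKO. There dcKO replicate 3 was highest and Ctrl replicate 3 lay below every cKO embryo.

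With each embryo's curve of level over GC content taken out, an alternative chosen after seeing the data, the 56 low members summed to 43.2, 19.5 and 10.5 CPM in Ctrl, 5.28, 13.7 and 7.80 in cKO and 13.4, 14.0 and 20.7 in dcKO. The order of the embryos at the top was kept, with Ctrl replicate 1 still highest, and cKO replicate 2 still lay above Ctrl replicate 3. With the same curve as an offset in edgeR, 0 of the 6 tested genes were called, beside 4.82% of all genes in that fit in cKO, 1.42% in dcKO and 0.0442% in dcKO against cKO. The log2 fold changes in cKO and dcKO were then 0.87 and 0.60 for Hist1h1c, -0.32 and 0.0260 for Hist3h2a, -0.43 and -0.21 for Hist2h2be, -0.40 and -0.11 for Hist3h2ba, -0.13 and 0.67 for Hist1h2bc and -0.42 and 0.98 for Hist1h4i. In that edgeR fit Hist1h1c was higher and Hist2h2be lower in cKO at an unadjusted p under 0.05. Of 13561 genes, 2215 were higher and 2539 lower at that limit. Whether transcript length or RNA quality took part was not tested.

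**Figure D3:**
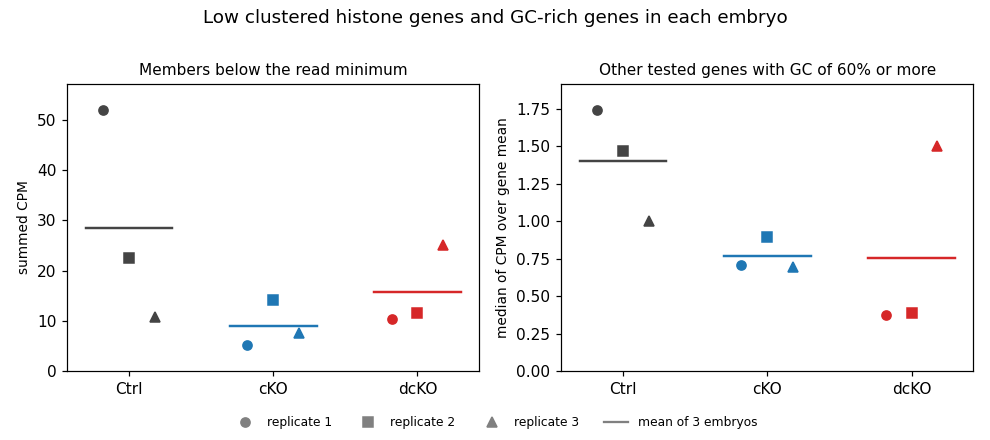
Left, summed CPM of the 56 clustered histone genes below the read minimum in each embryo; right, the median CPM relative to the gene's mean over the 9 embryos for 469 other tested genes with a GC content of 60% or more. Both axes start at 0, lines are group means, and Ctrl replicate 1 is highest in both panels, at 52.0 CPM and 1.74.

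The annotated 3′ ends were compared with the levels. In GENCODE M21 transcripts, 50 of the 62 genes had bases annotated after the stop codon, and 43 of them held the histone stem-loop within 100 bases of it, as 6 paired bases around a loop of 4. Of 44709 other protein-coding transcripts searched on the transcript strand in the same window, 8 (0.0179%) held it. Among the 6 tested genes, 4 had the stem-loop, and all 4 had over 100 annotated bases after it. Among the low members, 18 of the 39 with a stem-loop did. The hexamer AATAAA or ATTAAA, a polyadenylation signal, stood after the stem-loop, or after the stop codon where no stem-loop was found, in 6 of the 6 tested genes and in 15 of the 44 low members with annotated bases there. No match was found in the window for Hist2h2be and Hist1h2bc, which says only that these letters are not there in those transcript models. The matches are a description of annotation.

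The stem-loops of the 4 tested genes are shown because they are the ends that a poly(A) library would miss, with the loop in capitals (5′ to 3′ on the transcript strand, GENCODE M21 transcripts, GRCm38). Those of Hist1h1c (chr13:23739512-23739527, plus strand) and Hist1h4i (chr13:22040966-22040981, minus strand) lie in the main cluster, and those of Hist3h2a (chr11:58955172-58955187, plus strand) and Hist3h2ba (chr11:58949349-58949364, plus strand) in the chromosome 11 locus, all in the annotated 3′ UTR of a single-exon transcript.
Hist1h1c: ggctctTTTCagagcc
Hist3h2a: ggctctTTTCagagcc
Hist3h2ba: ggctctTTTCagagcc
Hist1h4i: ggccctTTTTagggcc
The stem-loop started 25 bases after the stop codon in Hist1h1c, 42 in Hist3h2a, 29 in Hist3h2ba and 31 in Hist1h4i, and the annotated transcript ran on for 840 bases in Hist1h1c, 1643 in Hist3h2a, 169 in Hist3h2ba and 330.0 in Hist1h4i.

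Of 18 other RNAs listed as ending without a poly(A) tail, 10 were matched by symbol and the remaining 8 were not analysed here. Of the 10, 5 (Rmrp, Rpph1, Rnu11, Rnu7 and Snord118) had 0 reads in all 9 embryos. Malat1, a nuclear RNA whose end is a triple helix, held nearly all of the list's reads, at 24.2, 29.8 and 30.9 CPM in Ctrl, 19.6, 19.2 and 21.4 in cKO and 23.1, 54.2 and 19.0 in dcKO. All cKO embryos lay below all Ctrl embryos, and dcKO replicate 2 was the highest of the 9. The log2 fold change of Malat1 was -0.49 (SE 0.36, adjusted p = 0.400 from edgeR) in cKO and 0.18 (SE 0.35, adjusted p = 0.750) in dcKO. The dcKO value ran from -0.42 to 0.45 when 1 embryo was left out, and was -0.32 with the GC offset. Short RNAs may also be lost by size in library preparation, which was not tested.

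The factors that process, translate and degrade histone mRNAs were tested as a list of 20 genes, all above the read minimum, of which edgeR called 0 and DESeq2 called Upf1 in both mutants. At an unadjusted p under 0.05 in edgeR, 0 were higher and 2 lower in cKO (15.3% and 11.7% of all tested genes), 2 higher and 2 lower in dcKO (18.0% and 11.2%), and 0 in either direction in dcKO against cKO (2.05% and 2.38%). Slbp was at 117, 113 and 126 CPM in Ctrl, 149, 125 and 160.2 in cKO and 200.5, 262 and 111 in dcKO. The Slbp values of both mutant groups overlapped Ctrl, with log2 fold changes of 0.29 (SE 0.27, adjusted p = 0.512 from edgeR) and 0.69 (SE 0.27, adjusted p = 0.124), which were 0.0431 and 0.27 with the GC curve as an offset. Upf1, a helicase that takes part in histone mRNA decay as well as nonsense-mediated decay, was at 116, 94.4 and 74.1 CPM in Ctrl, 43.0, 51.6 and 47.8 in cKO and 24.0, 36.1 and 70.0 in dcKO. Srrt, a partner of the nuclear cap-binding complex, was at 268, 240.5 and 227 CPM in Ctrl, 148, 142 and 148 in cKO and 102, 150 and 198 in dcKO. For Upf1 and Srrt every mutant embryo lay below every Ctrl embryo, with edgeR adjusted p-values of 0.106 and 0.0754 in cKO and 0.0747 and 0.0783 in dcKO. DESeq2 gave adjusted p-values of 0.0402 for Upf1 and 0.0224 for Srrt in cKO and of 0.0161 and 0.0253 in dcKO, while with the GC curve as an offset the edgeR log2 fold changes of Upf1 were -0.55 in cKO (adjusted p = 0.0624) and -0.50 in dcKO (adjusted p = 0.111), and those of Srrt -0.50 (adjusted p = 0.0891) and -0.23 (adjusted p = 0.441).

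In dcKO against cKO the processing genes with the smallest p were Casp8ap2 and Ncbp2. Casp8ap2, needed for histone gene transcription, was at 79.3, 63.3 and 77.2 CPM in Ctrl, 84.0, 76.3 and 93.1 in cKO and 131, 183 and 65.3 in dcKO. Ncbp2, the small subunit of the nuclear cap-binding complex, was at 109.7, 103 and 120.2 CPM in cKO and 122, 201 and 104 in dcKO. Both overlapped between the groups, with edgeR log2 fold changes of 0.58 (SE 0.31) and 0.36 (SE 0.23) and an adjusted p of 0.889 for each. With the GC offset the log2 fold changes were 0.27 and 0.22, and without dcKO replicate 2 they were 0.22 and 0.0291. The whole list summed to 2056, 1956 and 1942 CPM in Ctrl, 1820.1, 1747 and 1908 in cKO and 1904, 2260.1 and 1917 in dcKO, with Ncbp1 the most abundant.

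A list of histone genes outside the clusters, taken as replication-independent, had 11 genes, all tested. Whether each of them, H2afx included, makes only polyadenylated mRNA was not examined. Of the 11, edgeR called 0 and DESeq2 called H2afv and H2afx lower in both mutants. At an unadjusted p under 0.05 in edgeR, 8 of the 11 were lower and 0 higher in cKO (11.7% and 15.3% of all tested genes), 5 lower and 0 higher in dcKO (11.2% and 18.0%), and 0 in dcKO against cKO, with medians of -0.66, -0.51 and 0.27 beside 0.01, 0.11 and 0.07 for all tested genes. Their summed level was 5013, 4732 and 4389 CPM in Ctrl, 3154, 2936 and 3306 in cKO and 3082, 5344 and 3525 in dcKO, so that all cKO embryos lay below Ctrl and dcKO replicate 2 above it. H3f3a, which encodes the variant H3.3 and was the most abundant, was at 1110.1, 1140.3 and 1147 CPM in Ctrl, 720.0, 641 and 788 in cKO and 748, 1570.4 and 692 in dcKO.

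H2afx, the H2A variant phosphorylated at DNA breaks, was at 280, 244 and 207 CPM in Ctrl, 95.1, 98.7 and 114 in cKO and 58.4, 128 and 133 in dcKO. Every mutant embryo lay below every Ctrl embryo, with log2 fold changes of -1.24 (SE 0.28, adjusted p = 0.0514 from edgeR) in cKO and -1.19 (SE 0.28, adjusted p = 0.0511) in dcKO. With the GC curve as an offset these were -0.43 (adjusted p = 0.447) and 0.08 (adjusted p = 0.914). H2afv, a second H2A.Z gene, was at 312, 329 and 258 CPM in Ctrl, 111, 120 and 134 in cKO and 80.6, 178 and 181 in dcKO, with a log2 fold change in cKO of -1.30 (SE 0.28, adjusted p = 0.0509 from edgeR), which was -1.49 (adjusted p = 0.0297) with the GC offset. H2afy, which encodes macroH2A1, had a log2 fold change in dcKO of -0.91 (SE 0.23, adjusted p = 0.0533 from edgeR). In dcKO against cKO the smallest p-values were those of H2afz, an H2A.Z gene, with every dcKO embryo above every cKO embryo (log2 fold change 0.52, SE 0.24), and of H3f3a (0.49, SE 0.29), with an edgeR adjusted p of 0.889 for each. With the GC offset these were 0.53 and 0.29, and without dcKO replicate 2 they were 0.21 and 0.00742.

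Of 20 histone chaperones and 24 S phase genes tested edgeR called 0, while DESeq2 called Hira in cKO and E2f1 in both mutants. Of the chaperones, 0 were higher and 3 lower in cKO and 3 higher and 3 lower in dcKO at an unadjusted p under 0.05, for which the shares of all tested genes are those given above. Hira, which deposits H3.3, was at 34.0, 35.1 and 25.2 CPM in Ctrl, 16.0, 14.8 and 13.0 in cKO and 11.8, 23.1 and 20.2 in dcKO, with a log2 fold change in cKO of -1.10 (SE 0.28, adjusted p = 0.0574 from edgeR). Of the S phase genes, 1 was higher and 4 lower in cKO and 3 higher and 4 lower in dcKO. E2f1, a transcription factor of the G1 to S transition, was at 57.5, 51.6 and 46.1 CPM in Ctrl, 23.8, 18.5 and 18.8 in cKO and 12.7, 23.0 and 24.2 in dcKO, below Ctrl in all 6 mutant embryos, with log2 fold changes of -1.34 (SE 0.27, adjusted p = 0.0509 from edgeR) and -1.37 (SE 0.27, adjusted p = 0.0502). With the GC curve as an offset these were -0.87 (edgeR adjusted p = 0.0827) and -0.54 (adjusted p = 0.293). Without dcKO replicate 2 or 3, edgeR called E2f1 and H2afx in both mutants, H2afv and Hira in cKO and H2afy in dcKO. Of these fits, only that without replicate 3 called Upf1 in dcKO. Over all tested genes the fit without replicate 2 called 769 higher and 372 lower in cKO and 980 and 350 in dcKO. Without replicate 3 these were 722 and 751, and 1157 and 2088. With all 9 embryos and no filter, edgeR called all of these, Upf1 included, beside 3.03% and 2.58% of all genes. With library totals only, it called E2f1 and H2afx in both mutants and H2afv in cKO. The summed S phase list stayed between 5578 and 6775 CPM in all 9 embryos, with 6497, 6250 and 6620.1 in Ctrl, 6027, 5578 and 6225 in cKO and 5962, 6775 and 6098 in dcKO.

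The other chaperone and S phase genes with the smallest p-values did not pass adjustment in the main edgeR fit either. Mcm2, a helicase subunit that also binds histones, and Chaf1a, of the replication-coupled chaperone CAF-1, lay below Ctrl in all 6 mutant embryos. The gap was narrow in dcKO replicate 3, at 395.8 CPM for Mcm2 and 110.4 for Chaf1a. Ctrl replicate 3, the lowest Ctrl embryo for both, was at 398.7 and 113.3 CPM. For Mcm2 the log2 fold change was -0.69 in cKO (SE 0.25, edgeR adjusted p = 0.118) and -0.65 in dcKO (SE 0.25, adjusted p = 0.121), and for Chaf1a -0.42 in cKO (SE 0.23, edgeR adjusted p = 0.259) and -0.64 in dcKO (SE 0.23, adjusted p = 0.106). With the GC curve as an offset in edgeR, Mcm2 in cKO was -0.69 (adjusted p = 0.0420) and Hira in cKO -0.99 (adjusted p = 0.0466). Both were short of a 2-fold change. Chaf1a in dcKO was -0.49 with that offset (edgeR adjusted p = 0.0563). Hira in dcKO had a log2 fold change of -0.77 (SE 0.28, edgeR adjusted p = 0.106). Gins1, a subunit of the replicative helicase, was at 51.2, 43.2 and 48.1 CPM in Ctrl and 80.1, 80.8 and 56.9 in dcKO, with every dcKO embryo above Ctrl (0.61, SE 0.18, edgeR adjusted p = 0.0718). In dcKO against cKO the picks were Nap1l1 (0.61), Atrx (0.49), Tipin (0.58) and Cdc45 (-0.26), all with overlapping embryos and an edgeR adjusted p of 0.889, as was Malat1 (0.68). With the GC offset the log2 fold changes were -0.43 for Hira and 0.37 for Gins1 in dcKO, and in dcKO against cKO 0.24 for Nap1l1, 0.13 for Atrx, 0.27 for Tipin, -0.21 for Cdc45 and 0.43 for Malat1. Without dcKO replicate 2, the highest of the 9 embryos for Nap1l1, Atrx, Tipin and Malat1, the values in dcKO against cKO were 0.0260 for Nap1l1, 0.10 for Atrx, 0.16 for Tipin and 0.0679 for Malat1. Npm1 and Rrm1 were the most abundant genes of the chaperone and S phase lists.

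The tissue's own markers were present, with the 8 dorsal telencephalon progenitor genes summing to 1909, 1566 and 1255 CPM in Ctrl, 1078, 1095 and 1070 in cKO and 1298, 1782 and 1466 in dcKO, led by Lhx2, and 3 of the 8 lower in cKO at an unadjusted p under 0.05 in edgeR (11.7% of all tested genes). The 12 matched erythroid genes, led by Hbb-y, summed to 10275, 11566 and 7758 CPM in Ctrl, 14573, 9585 and 12927 in cKO and 6786, 4969 and 6559 in dcKO. The 8 intermediate progenitor and neuron genes, led by Tubb3, summed to 1670.4, 1462 and 1215 CPM in Ctrl, 1140.1, 1190.4 and 869 in cKO and 664, 1497 and 1273 in dcKO. For these lists 3 of 11 tested erythroid genes were higher in cKO (15.3% of all tested genes) and 6 lower in dcKO (11.2%), and 0 of 8 neuronal genes were higher or lower in either group, at an unadjusted p under 0.05. In dcKO against cKO 3 of 8 dorsal progenitor genes and 1 of 8 neuronal genes were higher and 8 of 11 erythroid genes lower at that limit, beside 2.05% and 2.38% of all tested genes. Of the marker genes edgeR called 0. In cKO DESeq2 called 3 dorsal progenitor genes (Emx1, Lhx2 and Hes5) lower. It called 5 erythroid genes lower in dcKO and 3 lower in dcKO against cKO. Over all tested genes DESeq2 called 8.82% in cKO, 8.46% in dcKO and 0.380% in dcKO against cKO. These shares are the background for its calls in every list.

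Further marker lists covered meninges, vessels and microglia, and the choroid plexus and hem. The 6 meningeal genes, led by Col3a1, summed to 781, 845 and 773 CPM in Ctrl, 484, 695 and 442 in cKO and 315, 337 and 504 in dcKO. The 5 endothelial genes, led by Kdr, summed to 179.8, 224 and 247 CPM in Ctrl, 254, 243 and 185 in cKO and 122, 131 and 119.8 in dcKO. In dcKO 3 of 6 meningeal and 3 of 5 endothelial genes were lower at an unadjusted p under 0.05 (11.2% of all tested genes), and in cKO 1 and 0 (11.7%). Lum and Foxc1, at 70.4 and 15.5 CPM in dcKO replicate 2, were above their values in every Ctrl embryo. The 4 microglial genes, led by Csf1r, summed to 26.9, 34.0 and 27.6 CPM in Ctrl, 44.4, 58.3 and 28.0 in cKO and 16.1, 10.8 and 24.2 in dcKO, with 0 of 3 tested genes past that limit against Ctrl. In dcKO against cKO 4 of 5 endothelial and 3 of 3 microglial genes were lower at that limit (2.38% of all tested genes). DESeq2 called 3 meningeal genes (Col1a1, Col1a2 and Col3a1) and Cdh5 lower in dcKO, Cdh5 also against cKO, and both tested choroid plexus and hem genes higher in each mutant. The 4 choroid plexus and hem genes, led by Rspo2, summed to 17.4, 22.0 and 3.38 CPM in Ctrl, 46.9, 124 and 182 in cKO and 213, 54.7 and 67.5 in dcKO, above Ctrl in every mutant embryo, with both tested genes higher in cKO and in dcKO at that limit (15.3% and 18.0% of all tested genes). No marker matched in these lists was at 0 in all embryos. The part of these cell types in the histone values was not tested.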

How the data were processed

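RNA from the cortex of 9 single embryos, separate animals, was made into stranded poly(A)-selected libraries. The authors' notes name FastQC, cutadapt, STAR, featureCounts and DESeq2 with build mm39; versions, annotation and the counting of multiply mapped reads are not given in the sources used here. The deposited values are raw read counts per gene, and counts were analysed as deposited. Of 57010 Ensembl identifiers, 52029 matched a GENCODE M21 (GRCm38) symbol; current symbols came from RefSeq (GRCm38.p6), and M21 also gave lengths, GC content and 3′ ends. A gene was tested if each of the 9 embryos had over 10 reads for it (13680 genes), in R 4.3.3 with edgeR 4.0.16 (TMM, quasi-likelihood, Benjamini-Hochberg over all tested genes), in one model of the 3 genotypes without covariates, and with DESeq2 1.42.0 as an alternative. The script was checked on simulated data. Exact permutation tests used log2 CPM with a prior count of 0.5. CPM values of the genes below the minimum use the same TMM factors. Named genes were all tested members, Cnot3, Trp53, Slbp, the 2 genes of each list with the smallest p in each comparison, and each summed list's most abundant gene. Alternatives were other scalings, filters, samples, blocks and a GC offset (loess, span 0.5). Members and lists were chosen with earlier results of these data known.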

Additional observations from a re-analysis of the deposited data

How the results depend on the processing

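With a main count of 0 in each comparison, the number of clustered histone genes called was 0 under every alternative but the fit without dcKO replicate 3, in dcKO against Ctrl (0 to 1 over the embryos left out, 0 throughout in the other comparisons), and the fit with the label number as a block. That number, in the names of the count columns, is shared by 3 pairs of embryos (Ctrl 1 with cKO 2, Ctrl 2 with cKO 3, Ctrl 3 with dcKO 3), and what it stands for is not given in the sources used here. As a block, chosen after seeing the data, it called Hist1h4i lower in cKO, Hist1h1c, Hist3h2ba, Hist1h2bc and Hist1h4i higher in dcKO, and the last 3 of these higher in dcKO against cKO (1, 4 and 3 genes), in fits that called 957, 1229 and 1349 of all tested genes higher and 1029, 404 and 234 lower, with 1 residual degree of freedom and the dcKO comparison resting on the single pair of Ctrl 3 and dcKO 3. Deviations within these pairs correlated at 0.191, -0.0134 and -0.537. With the replicate block the counts were 0, 0 and 0. Same-numbered embryos deviated with a mean correlation of -0.169, so these numbers gave no sign of a pairing. The median log2 fold change of the tested members was -0.15 in cKO, 0.34 in dcKO and 0.42 in dcKO against cKO; leaving out one embryo it ran from -0.22 to 0.02, from 0.17 to 0.43 and from 0.35 to 0.61, with the replicate block it was -0.15, 0.27 and 0.36, with the GC offset -0.36, 0.31 and 0.32, and with the label number as a block -0.30, 1.46 and 1.63. It was -2.15, -1.05 and 0.88 with no filter, -1.38 and -0.40 in cKO and dcKO with filterByExpr, and -1.94, -0.71 and 0.96 with no filter and a GC offset, the last chosen after seeing the data; these medians cover more members. The log2 ratio of summed CPM was -0.50, -0.04 and 0.46, and ran from -0.73 to -0.16, from -0.26 to 0.30 and from 0.27 to 0.61 when one embryo was left out.

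Single genes changed sign. With the GC offset, chosen after seeing the data, Hist2h2be in dcKO was -0.21, Hist1h2bc in cKO -0.13, Malat1 in dcKO -0.32 and H2afx in dcKO 0.0784; with no filter and a GC offset Hist3h2a in dcKO was -0.0654, and with library totals only it was 0.0683 in cKO. With the label number as a block Hist1h2bc in cKO was -0.35; in dcKO Hist3h2ba was 1.30, Hist2h2be -0.17, Hist3h2a -0.16, Slbp -0.17 and Malat1 -0.70; and in dcKO against cKO Hist1h1c was 1.02, Slbp -0.48, Casp8ap2 -0.49, Ncbp2 -0.0714, H3f3a -0.0666, Nap1l1 -0.51, Atrx -0.55, Tipin -0.37 and Malat1 -0.30. Leaving out one embryo gave Cnot3 in dcKO against cKO -0.25 to 1.11, Hist1h1c in dcKO -0.40 to 0.71 and in dcKO against cKO -1.08 to 0.0315, Hist1h2bc in cKO -0.22 to 0.33 (and -0.14 without cKO replicate 2), Hist1h4i in cKO -0.97 to 0.0662, Hist2h2be in dcKO -0.0627 to 0.29, Hist3h2ba in dcKO -1.77 to 0.0322 and in dcKO against cKO -0.99 to 0.81, and Malat1 in dcKO -0.42 to 0.45. Without a change of sign, it gave in dcKO Hist1h4i 0.17 to 1.21, Hist1h2bc 0.60 to 1.33, Slbp 0.40 to 0.96, Upf1 -1.66 to -0.84, Srrt -0.96 to -0.50, Chaf1a -0.98 to -0.49, H2afx -1.38 to -0.90, Cnot3 -3.03 to -1.67 and Trp53 -3.72 to -1.84, and in dcKO against cKO Hist1h4i 0.79 to 1.38, Hist1h2bc 0.55 to 1.24, Slbp 0.11 to 0.67, Casp8ap2 0.22 to 0.89, Ncbp2 0.0291 to 0.54, H2afz 0.21 to 0.66, H3f3a 0.00742 to 0.69, Nap1l1 0.0260 to 0.94, Atrx 0.10 to 0.80, Tipin 0.16 to 0.88, Malat1 0.0679 to 0.94 and Trp53 -3.22 to -1.34; in cKO Hist1h1c ran from 0.38 to 0.85 and Hist3h2ba from -0.98 to -0.52. Leaving out 1 embryo, Hist3h2a ran from -0.23 to -0.04 in cKO, 0.13 to 0.55 in dcKO and 0.24 to 0.65 in dcKO against cKO. Hist2h2be ran from -0.32 to -0.03 in cKO and 0.13 to 0.47 in dcKO against cKO. The cause was not tested. The few reads of the low members limit every statement on them.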

Other observations

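Of the genes below the read minimum, those of the H1 group other than Hist1h1c were led by Hist1h1d, with 95, 22 and 21 reads in Ctrl, 21, 29 and 18 in cKO and 15, 5 and 47 in dcKO. Hist1h2bk, an H2B gene, had 98, 33 and 18 reads in Ctrl, 10, 23 and 7 in cKO and 3, 18 and 45 in dcKO. In both, Ctrl replicate 1 was highest and dcKO replicate 3 second; both genes were chosen after their values were seen.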
